A study of Mus musculus with 37 samples.

Results

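The 60 genes described here build and police the machinery that moves chromosomes at division. They were listed by name as genes of the spindle, the centromere and kinetochore, cohesin and condensin, the spindle checkpoint and the anaphase promoting complex. Of the 60, 59 had a row in the RNA-seq tables, which together name 29296 genes. RNA of the meiotic cohesin gene Rec8 was not analysed here, and Rec8 enters only the counts of promoter motifs. Each of the 4 tables held all 59. In groups they were 6 genes of the chromosomal passenger complex and Aurora kinases, 6 checkpoint genes, 2 Polo-like kinases, 5 centromere and inner kinetochore genes, 8 outer kinetochore genes, 7 spindle motors and microtubule-associated proteins, 6 central spindle and cytokinesis genes, 8 cohesin and shugoshin genes, 5 condensin and topoisomerase genes, and 6 genes of the anaphase promoting complex and separase.

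At division, microtubules of the spindle attach to kinetochores, protein assemblies that form on centromeric chromatin carrying the histone variant CENP-A. Attachment is sensed by the spindle checkpoint and corrected by Aurora kinases of the chromosomal passenger complex, and the anaphase promoting complex then releases separase, which cuts cohesin so that chromosomes can part. A fully grown germinal vesicle (GV) oocyte is arrested in meiotic prophase with stored mRNAs for its meiotic divisions, many of which are degraded as the oocyte matures, and the 2-cell embryo switches to mitosis without centrosomes while its own genome becomes active.

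The study asked what the maternal Hira complex, a histone H3.3 chaperone, does for the oocyte and early embryo. In C57BL/6 mice, Zp3-Cre, which acts in growing oocytes, was combined with floxed Hira (the ZH line) or floxed Cabin1 (the CabZ line). ZH KO and CabZ KO oocytes came from females whose floxed alleles were deleted in the oocyte, and the ZH Het and CabZ Het controls were littermates that also carried Zp3-Cre, with 1 floxed allele. The material was GV oocytes of both lines from females primed with gonadotrophin, CabZ 2-cell embryos, and wild-type GV oocytes injected with GFP or Zscan4d RNA, matured in vitro, activated with strontium and grown to the 2-cell stage. For CabZ 2-cell embryos the labels give Het or KO without saying whose genotype that is. It is taken here as the mother's, in whose oocytes Zp3-Cre acts. Whether those embryos were fertilised or parthenogenetic, and the age of the mice, were not given for the RNA-seq in the sources used here. RNA-seq had 4 libraries per group and 3 for Zscan4 overexpression, and ATAC-seq, which marks open chromatin, had 3 libraries per genotype of CabZ GV oocytes. The methods describe pools of 10 oocytes per RNA-seq library whereas the sample records speak of individual cells, and nothing says whether the libraries of a group came from separate females. Libraries were primed at the poly(A) tail, so a longer tail and more mRNA cannot be told apart. The p-values below measure only the spread between these samples, which may be technical.

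Reads on genes per library, recovered from the tables, ranged from 5813723 in a CabZ KO 2-cell library to 21856032 in a GFP library. Within the CabZ 2-cell embryos the Het libraries had 7936845 to 8235402 reads and the KO libraries 5813723 to 6326779. Cabin1 was 0.119 FPKM in CabZ Het and 0.0242 in CabZ KO GV oocytes, and 0.322 and 0.134 in the 2-cell embryos. Hira gave 2 to 14 reads in ZH Het and 0 to 13 in ZH KO libraries, too few to check the labels. Zscan4d was 117 FPKM in the GFP libraries and 79.4 in those labelled Zscan4 overexpression, so more Zscan4d was not seen in the latter. These are 2-cell embryos, and uninjected CabZ Het embryos also had 104 FPKM, so the values do not test the injection itself. The paper checked the overexpression against uninjected oocytes by qRT-PCR, immunofluorescence and western blot. No direction below is credited to more Zscan4d. Granulosa and cumulus cell markers summed to at most 2.98 FPKM in any library. FPKM here is reads on a gene relative to the length of its whole span, introns included, and to the reads of the library. For CabZ the reads of the library are those in the table. For ZH and Zscan4 OE they are the larger total behind the deposited FPKM. Differences are log2(FPKM + 1) of the treated group minus its control, tested across all genes that averaged 1 FPKM or more, and a gene passed when limma's adjusted p was under 0.05. These differences understate the change of genes near 1 FPKM.

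Sequence around the transcription start is shown for the 5 members with the largest falls and the 2 with the largest rises in CabZ KO 2-cell embryos and for the 2 with the largest falls in ZH KO oocytes. A pair of short motifs is marked in it. The first is CCAAT, known to be bound by NF-Y, and the other is TTTGAA, the core of the cell cycle homology region through which the DREAM and MuvB complexes regulate late cell cycle genes. Each line runs from 120 bases before to 30 bases after the annotated start, 5′ to 3′ on the gene's strand, taken from RefSeq on GRCm38.p6, with CCAAT or its complement ATTGG and TTTGAA or its complement TTCAAA in capitals. The falls in CabZ KO embryos are Cenpa, Prc1, Spc25, Cdca8 and Ube2c, the rises Nuf2 and Aurkc, and the falls in ZH KO oocytes Bub1b and Kif23. Ube2c and Aurkc were also the largest rises in ZH KO oocytes.
Cenpa (chr5:30666766-30666915, plus strand): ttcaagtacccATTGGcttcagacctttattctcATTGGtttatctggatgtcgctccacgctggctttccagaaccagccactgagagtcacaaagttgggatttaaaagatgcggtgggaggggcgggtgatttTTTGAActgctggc
Prc1 (chr7:80294331-80294480, plus strand): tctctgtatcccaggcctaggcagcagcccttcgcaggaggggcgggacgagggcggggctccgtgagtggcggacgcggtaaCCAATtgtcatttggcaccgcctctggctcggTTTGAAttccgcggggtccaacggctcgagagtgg
Spc25 (chr2:69206184-69206333, minus strand): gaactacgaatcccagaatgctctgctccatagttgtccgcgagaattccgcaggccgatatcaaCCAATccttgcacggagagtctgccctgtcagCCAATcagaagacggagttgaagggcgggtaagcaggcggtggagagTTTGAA
Cdca8 (chr4:124936888-124937037, minus strand): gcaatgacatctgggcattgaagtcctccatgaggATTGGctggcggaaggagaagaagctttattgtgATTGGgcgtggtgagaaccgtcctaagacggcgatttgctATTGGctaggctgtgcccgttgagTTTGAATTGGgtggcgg
Ube2c (chr2:164769809-164769958, plus strand): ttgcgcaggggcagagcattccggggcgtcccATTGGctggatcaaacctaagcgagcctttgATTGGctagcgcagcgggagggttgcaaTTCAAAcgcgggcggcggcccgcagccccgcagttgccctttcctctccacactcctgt
Nuf2 (chr1:169531435-169531584, minus strand): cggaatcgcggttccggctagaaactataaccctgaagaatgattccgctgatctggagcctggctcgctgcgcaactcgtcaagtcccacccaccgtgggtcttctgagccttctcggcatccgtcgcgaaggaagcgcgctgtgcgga
Aurkc (chr7:6995265-6995414, plus strand): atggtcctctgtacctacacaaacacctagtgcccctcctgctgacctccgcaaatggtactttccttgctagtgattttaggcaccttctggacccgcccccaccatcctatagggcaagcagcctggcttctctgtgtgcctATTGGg
Bub1b (chr2:118598091-118598240, plus strand): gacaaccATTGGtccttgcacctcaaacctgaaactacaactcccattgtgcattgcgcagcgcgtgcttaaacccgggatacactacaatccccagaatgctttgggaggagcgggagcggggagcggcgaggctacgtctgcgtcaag
Kif23 (chr9:61946770-61946919, minus strand): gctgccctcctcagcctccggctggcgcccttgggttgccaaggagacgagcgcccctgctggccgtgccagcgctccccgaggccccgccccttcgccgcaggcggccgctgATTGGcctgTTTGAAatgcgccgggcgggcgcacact
Cenpa, Prc1, Spc25, Cdca8, Ube2c and Kif23 held both motifs in these stretches, Bub1b held a CCAAT with a TTTGAA just past the end of its line at 41 bases after the start, Aurkc held only a CCAAT, after its start, and Nuf2 held neither. In Cdca8 the TTTGAA shares its last base with an ATTGG.

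Over the whole RefSeq windows of 300 bases, from 250 before to 50 after a start and counting both strands, 52 of the 60 members had at least 1 window. Of their 59 windows, 42 (71.2%) held CCAAT, 29 (49.2%) held TTTGAA, 25 (42.4%) held both and 13 (22.03%) neither. Among 32851 windows of all genes in the table the shares were 37.4%, 17.9%, 6.95% and 51.7%. A match is only a match of letters, and no window was tested for binding.

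Levels of different members can be set side by side only per length of mature transcript, so values were also divided by the exon length. On that scale Pttg1, the securin that holds separase inactive, was the highest member in CabZ Het GV oocytes at 1749 ± 266 FPKM (SD, n = 4), followed by the passenger complex subunit Birc5 (survivin) at 539 ± 44.2 and the spindle protein Tacc3 at 401 ± 99.7. Prc1, which bundles central spindle microtubules, at 232 ± 70.7, Aurka at 208 ± 19.2 and the Ndc80 complex subunit Spc25 at 205 ± 13.8 came next and did not differ beyond their spread. In CabZ Het 2-cell embryos Pttg1 was again the highest at 974 ± 129, and Spc25, Cenpa and Birc5 followed at 352 ± 78.2, 316 ± 60.3 and 301 ± 15.3, with overlapping spreads. The lowest member in both was Cenpb, which binds centromeric satellite DNA, at 0.153 and 0.371.

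In ZH KO GV oocytes 15 of the 44 members tested fell and 7 rose, while 22 did not pass. Checkpoint and Polo-like kinases and cytokinesis proteins led the falls, and Aurkc, Ube2c and Mad2l1 led the rises. Among all 5792 genes tested 26.3% fell and 25.6% rose, so the members' share of falls was above the background and their share of rises below it. Their median difference was -0.29, against -0.04 over all genes. The split depended on the library scale. With each library shifted to the same median over genes that averaged 10 FPKM or more, 21 members fell and 3 rose, and with libraries scaled to the reads in the table there were 13 falls and 10 rises, the medians being -0.19 and 0.08 for all genes and -0.44 and -0.13 for the members. Of all genes 1987 fell and 1195 rose with equal medians, and 1379 fell and 2093 rose on the other of these scales. Under both of these scales 12 of the 15 falls and 3 of the 7 rises (Aurkc, Mad2l1 and Ube2c) still passed. Aurka, Ncaph and Tacc3 lost the call on the scale of the reads in the table, and Birc5, Cenpk, Pttg1 and Smc2 lost it with equal medians. The rises numbered 3 without Het replicate 1 or 2 and 4 without KO replicate 1 or 4.

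Bub1b, which encodes the checkpoint protein BubR1 (chr2:118598211-118641592, mm10), was 13.9, 14, 14.8 and 10.9 FPKM in the ZH Het and 2.4, 5.11, 2.37 and 2.51 in the ZH KO libraries. Every KO library was below every Het library, and KO replicate 2 stood above the other three. The difference was -1.85 ± 0.20 (SE, limma, adjusted p = 0.000103). Kif23, the kinesin of centralspindlin that organises the midzone at cytokinesis, was 11.1, 11.1, 9.96 and 9.5 in ZH Het and 2.76, 2.91, 2.31 and 2.93 in ZH KO libraries. The groups were wide apart and each was tight, with a difference of -1.62 ± 0.12 (SE, limma, adjusted p = 9.35e-06). Its partner Racgap1 also fell (-0.65 ± 0.19, SE, limma, adjusted p = 0.0163), although its groups overlapped.

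Both Polo-like kinases fell. Plk1, the mitotic kinase that acts at centrosomes, kinetochores and the midzone, was 25.9, 25, 19.5 and 17.1 FPKM in ZH Het and 3.94, 16, 10 and 5.49 in ZH KO libraries. KO replicate 2 came nearest to the lowest Het library without reaching it, and the difference was -1.36 ± 0.34 (SE, limma, adjusted p = 0.00906). Plk4, the kinase that starts centriole duplication, went from 8.57 ± 1.32 to 4.15 ± 0.547 (SD, n = 4), a difference of -0.89 ± 0.14 (SE, limma, adjusted p = 0.000795). Ttk, the checkpoint kinase Mps1, was 6.84, 8.66, 4.97 and 4.36 in ZH Het and 1.93, 3.51, 4.24 and 1.78 in ZH KO libraries. The groups were close at their edges but did not overlap, and the difference was -0.91 ± 0.25 (SE, limma, adjusted p = 0.0137), which missed the threshold when no filter on low values was used (limma, adjusted p = 0.0528). Cdc20, the activator of the anaphase promoting complex and target of the checkpoint, was 23.5, 18.4, 16.3 and 16.9 in ZH Het and 5.99, 19.3, 6.88 and 7.33 in ZH KO libraries. The KO libraries were low apart from replicate 2, which lay within the Het range. The difference of -0.99 ± 0.31 (SE, limma, adjusted p = 0.0221) no longer passed without Het replicate 1 or without any of KO replicates 1, 3 and 4, with limma's adjusted p between 0.0532 and 0.0637, nor without the filter (0.0797).

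Of the 7 cohesin, shugoshin, condensin and topoisomerase genes tested, 4 fell and Smc2, described below, rose. The condensin ATPase Smc4 went from 19.1 ± 0.496 to 10.9 ± 2.66 (-0.79 ± 0.15, SE, limma, adjusted p = 0.00252), the cohesin ATPase Smc3 from 6.12 ± 0.311 to 3.52 ± 0.837 (-0.67 ± 0.14, SE, limma, adjusted p = 0.00397), and the condensin subunit Ncaph, whose call depended on the library scale, differed by -0.33 ± 0.12 (SE, limma, adjusted p = 0.0494). Sgo2a, the shugoshin that protects centromeric cohesin in meiosis, was 1.86, 2.15, 2.32 and 1.66 in ZH Het and 1.04, 0.774, 1.17 and 0.881 in ZH KO libraries. The groups did not overlap, with a difference of -0.61 ± 0.12 (SE, limma, adjusted p = 0.00309). Sgo2a averaged under 1 FPKM in ZH KO and met the filter through the ZH Het libraries. It shares 35.04% of its exon bases with Kctd18, and because the libraries do not mark strand, reads of the 2 genes cannot be told apart there. The remaining falls were of the microtubule depolymerase Kif2c (-0.78 ± 0.17, SE, limma, adjusted p = 0.00482), Tacc3 (-0.58 ± 0.16, SE, limma, adjusted p = 0.0125), Anapc5 (-0.85 ± 0.27, SE, limma, adjusted p = 0.0235) and Aurka, described with its paralogues.

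On the other side, Ube2c, the ubiquitin-conjugating enzyme of the anaphase promoting complex, was 16.1, 16.3, 18.4 and 17.9 FPKM in ZH Het and 28.9, 22.2, 30.9 and 32.6 in ZH KO libraries. All KO libraries were above all Het libraries, a difference of 0.69 ± 0.14 (SE, limma, adjusted p = 0.00299). It shares 22.8% of its exon bases with Tnnc2. Aurkc, the Aurora kinase of the germline, was 26.2, 25.6, 21.7 and 23.4 in ZH Het and 39.1, 43.9, 35.1 and 40.4 in ZH KO libraries, again without overlap, and differed by 0.69 ± 0.12 (SE, limma, adjusted p = 0.00134). Mad2l1, which encodes the checkpoint effector Mad2, was 38.1, 39.3, 48.6 and 49.1 in ZH Het and 68.1, 52.3, 64.8 and 70.6 in ZH KO libraries, with KO replicate 2 just above the Het range. It differed by 0.54 ± 0.14 (SE, limma, adjusted p = 0.0119).

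The condensin ATPase Smc2 was near the detection filter, at 0.588, 0.599, 0.94 and 0.821 in ZH Het and 1.89, 0.937, 1.5 and 1.42 in ZH KO libraries. KO replicate 2 lay just under the highest Het library, so the groups overlapped. The difference was 0.48 ± 0.15 (SE, limma, adjusted p = 0.0212). Every ZH Het library was under the filter level, which Smc2 met only through its ZH KO libraries. The inner kinetochore gene Cenpk was 2.41, 2.59, 2.83 and 3.09 in ZH Het and 5.53, 3.13, 4.39 and 3.96 in ZH KO libraries, without overlap. It differed by 0.48 ± 0.15 (SE, limma, adjusted p = 0.0252). Neither Smc2 nor Cenpk passed with libraries shifted to the same median (limma, adjusted p = 0.0735 and 0.0859). Pttg1, whose groups overlapped, and Birc5 also rose, by 0.46 and 0.39 (limma, adjusted p = 0.0373 and 0.0253). Of the 7 outer kinetochore genes tested 0 passed in limma, 1 had an unadjusted p under 0.05, and their median difference was -0.05. With the added condition of a difference over 1 in log2(FPKM + 1), 3 members (Bub1b, Kif23 and Plk1) and 17.7% of all genes qualified.

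**Figure D1:**
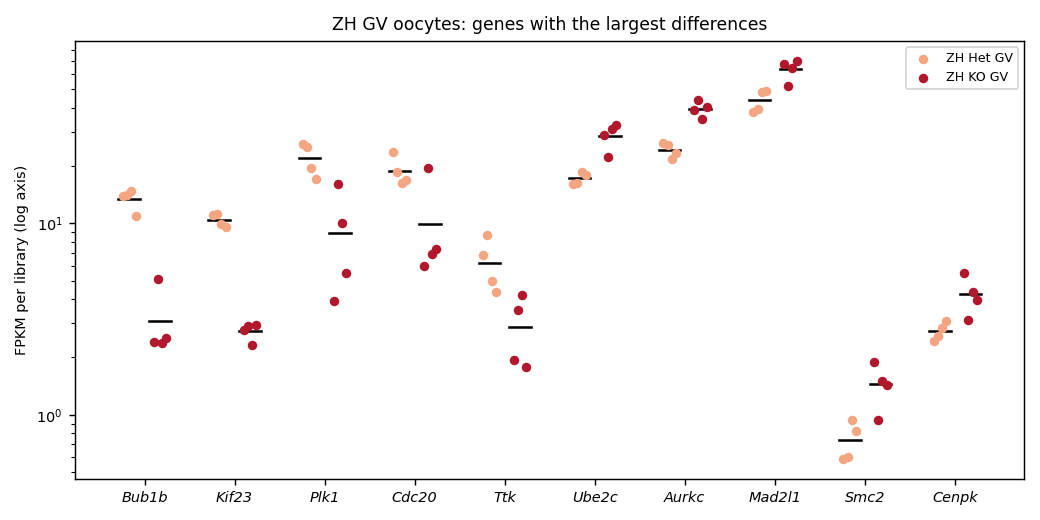
FPKM on a log axis of the 5 members with the largest falls and the 5 with the largest rises among those that passed in ZH GV oocytes. Each point is 1 library, light for ZH Het and dark for ZH KO, and bars are group means. Bub1b and Kif23 are separated by the widest gaps, and the Cdc20 and Plk1 points of ZH KO spread widely, with replicate 2 the highest.

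Below the filter of 1 FPKM were 15 members. In 5 of them every ZH KO library was below every ZH Het library and in 0 above. Among the 9676 genes under the filter with a mean no lower than the lowest of these members, 16.5% were lower without overlap and 24.4% higher. A lack of overlap gives 0.029, the smallest p a two-sided exact permutation test of 4 against 4 allows, unadjusted. The 5 were Cenpc1 (0.498 and 0.391 FPKM in ZH Het and ZH KO), the spindle kinesin Kif11 (0.909 and 0.505), Ncapd2 (0.0761 and 0.0295), Top2a (1.02 and 0.439) and Anapc1 (0.39 and 0.23).

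Other genes of the same pathways, 116 on a list that left out the members, were also counted in ZH oocytes. Of 66 tested, 13 rose and 17 fell. Haspin, the kinase that places the passenger complex at centromeres, fell from 34.1 to 7.34 FPKM (-2.10 ± 0.20, SE, limma, adjusted p = 4.90e-05). In the cohesin and condensin list the condensin subunit Ncapg fell by 0.67 and Esco2 rose by 0.65 (limma, adjusted p = 0.00109 and 0.0304). Mad2l1bp, which dismantles active Mad2 complexes, rose from 5.36 to 17.2 (1.54 ± 0.16, SE, limma, adjusted p = 7.12e-05). Tubg2, a gamma-tubulin, fell by 1.46 and Haus1 of the augmin complex rose by 1.23 (limma, adjusted p = 0.010 and 0.000124). Among anaphase promoting complex subunits Cdc16 rose by 1.34 and Anapc16 fell by 1.26 (limma, adjusted p = 0.000384 and 3.10e-05).

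Measures that moved with the ZH genotype were oocyte transcripts, whose 10 genes summed to 2330 to 2398 FPKM in ZH Het and 1369 to 2116 in ZH KO libraries, transcripts typical of the 2-cell stage, with 79.3 to 116 and 292 to 436, and granulosa markers, with 0.483 to 0.798 and 1.18 to 2.70. The granulosa genes Foxl2 and Has2 were listed at 0 in the ZH KO group. Genes that rose in ZH KO had a median exon length of 1209 bases and those that fell 2400, against 2600 and 3065 for the members that rose and fell. The part of these measures in the members' changes was not tested. FPKM are relative to the reads of the library, moreover, so the amount of RNA per oocyte or embryo was not measured.

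In CabZ GV oocytes 2 of the 47 members tested passed, against 8.20% of 6339 genes that rose and 5.73% that fell. Smc1a, the cohesin ATPase of mitotic cells, rose, and Cenpa, which encodes the centromeric histone, fell. Smc1a was 1.25, 1.02, 2.04 and 1.69 FPKM in CabZ Het and 2.27, 2.72, 3.3 and 3.33 in CabZ KO libraries. No KO library reached down to the Het range, and the difference was 0.65 ± 0.15 (SE, limma, adjusted p = 0.0182), which missed the threshold without Het replicate 1 (limma, adjusted p = 0.0602) or KO replicate 4 (0.0573), or with no filter (0.0516). Cenpa (chr5:30666777-30674831) was 15.5, 17, 14 and 15.9 in CabZ Het and 11.4, 9.34, 9.43 and 8.91 in CabZ KO libraries. All KO libraries were lower, a difference of -0.63 ± 0.11 (SE, limma, adjusted p = 0.00467).

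The other 45 had no passing difference, and the members' median was -0.00 against -0.02 for all genes. Aurkc lay at 29.9, 29.8, 31.9 and 32 in CabZ Het and 35, 37.7, 35.6 and 35.4 in CabZ KO libraries, without overlap but with a difference of 0.21 ± 0.09 (SE, limma, adjusted p = 0.15). The meiotic cohesin ATPase Smc1b, under the filter, was 0.178 ± 0.0237 and 0.114 ± 0.0233 FPKM, lower in every KO library (exact permutation test, two-sided p = 0.029, unadjusted). It was the only 1 of 12 members under the filter without overlap, against 6.40% lower and 11.04% higher among 8364 genes under the filter with a mean no lower than the lowest of these members. Among 68 other pathway genes tested, 5 rose and 1 fell. The cohesin acetyltransferase Esco2 rose from 40.7 to 70.7 (0.78 ± 0.10, SE, limma, adjusted p = 0.00127), and Cenpt, which links centromeric chromatin to the outer kinetochore, from 2.7 to 5.13 (0.73 ± 0.13, SE, limma, adjusted p = 0.00642). Haus1, the condensin subunit Ncapg2 and Fbxo5, an inhibitor of the anaphase promoting complex, rose by 0.53, 0.53 and 0.47, and Anapc16 fell by 0.40 (limma, adjusted p = 0.0222, 0.00632, 0.0192 and 0.0239).

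The effects of the ZH and CabZ deletions in GV oocytes were compared directly for 44 members. The lines stood on unlike library scales, CabZ on the reads in the table and ZH on the deposited FPKM. Genes in the table held 74.2 to 74.7% of the deposited total in ZH Het and 66.0 to 68.2% in ZH KO libraries. A contrast with both lines on the reads in the table was not run. The difference of the KO effects, ZH minus CabZ, passed for 14 members, 5 with a more positive effect in ZH and 9 with a more negative one, against 27.8% of 5332 genes. Kif23 (-1.48) and Bub1b (-1.85) were the most negative (limma, adjusted p = 0.000233 and 0.000312). The most positive were Ube2c (0.88) and Cenpa (0.77), with limma's adjusted p = 0.00886 and 0.00461. Across the 44 members the effects in the 2 lines had a Pearson r of 0.15, against 0.58 across all genes, where genes are not independent replicates and the lines share no library. With libraries shifted to the same median, 3 differences were positive and 13 negative, and they were 8 and 5 with both lines moved to their other library scale, ZH to the reads in the table and CabZ to the equal sums of the deposited values. Of all genes 728 passed as positive and 752 as negative, 629 and 947 with equal medians, and 1056 and 514 on the other library scales. Aurkc and Cenph lost the call with equal medians, and Kif2c, Plk1, Plk4 and Tacc3 lost it on the other library scales. Leaving out 1 library gave 9 members without ZH Het replicate 2, CabZ Het replicate 1 or CabZ KO replicate 2, and 23 without ZH KO replicate 2.

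In CabZ KO 2-cell embryos 22 of the 46 members tested fell and 6 rose, and 18 did not pass. Falls spread over every group of the machinery except the Polo-like kinases, from centromeric histone and Ndc80 complex to midzone proteins and cohesin. Of all 7798 genes tested 30.9% fell and 25.2% rose. The members' median was -0.49, against -0.11 over all genes. A difference over 1 in log2(FPKM + 1) as well was found for 13 of the falls and 2 of the rises, and for 37.4% of all genes. On the scale with equal library medians 18 members fell and 9 rose, and on the library scale of the deposited values 14 fell and 11 rose, so that the share of rises among changed members went from 21.4% to 33.3% and 44.0%. Of all genes 1967 fell and 2495 rose with equal medians, and 1253 fell and 3088 rose on the scale of the deposited values. The median of all genes was 0.13 and 0.39 on those scales and that of the members -0.25 and 0.00. All 6 rises and 14 of the 22 falls passed on every scale, and the other 8 falls (Anln, Aurkb, Cenph, Kif2c, Ndc80, Rad21, Sgo1 and Smc3) did not. Of the rises, Smc1a and Kif4 averaged only 0.571 and 0.714 FPKM in CabZ Het and met the filter of 1 FPKM through the KO libraries. Of the falls, Racgap1, Knl1, Kif2c and Smc3 averaged under 1 FPKM in CabZ KO and met it through the Het libraries.

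Cenpa was 53.6, 80.7, 66.7 and 56.2 FPKM in CabZ Het and 13.1, 14.4, 20.6 and 12.5 in CabZ KO 2-cell libraries. Even the highest KO library was far below the lowest Het library, and the mean went from 64.3 ± 12.3 to 15.2 ± 3.71 (SD, n = 4), 0.236 of the Het level. These values rested on 3432 to 5156 reads per Het library and 585 to 1049 per KO library. The difference was -2.02 ± 0.22 (SE, limma, adjusted p = 0.000217). Among other centromere genes, Cenph of the inner kinetochore fell by 0.50 (limma, adjusted p = 0.0308).

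Spc25, a subunit of the Ndc80 complex that grips microtubules, was 37.7, 47.8, 58.7 and 37.5 FPKM in CabZ Het and 11.9, 9.37, 13.8 and 9.79 in CabZ KO libraries. No libraries overlapped, and the difference was -1.92 ± 0.21 (SE, limma, adjusted p = 0.000223). Its partner Nuf2 went the other way, at 6.85, 3.55, 3.64 and 5.16 in CabZ Het and 9.73, 10.7, 14.6 and 18.7 in CabZ KO libraries. The KO libraries were all higher, a difference of 1.31 ± 0.26 (SE, limma, adjusted p = 0.00251). The scaffold Knl1 (-0.86 ± 0.18, SE, limma, adjusted p = 0.00277), its binder Zwint (-1.42 ± 0.25, SE, limma, adjusted p = 0.00153) and Ndc80 itself (-0.73 ± 0.19, SE, limma, adjusted p = 0.00998) fell, so the 8 outer kinetochore genes held 4 falls, 1 rise and 3 that did not pass.

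In the chromosomal passenger complex the scaffold-binding subunits diverged. Cdca8 (borealin) was 13.9, 26.7, 20.5 and 13.3 FPKM in CabZ Het and 4.75, 4.2, 6.11 and 3.72 in CabZ KO libraries. The groups did not overlap, and the difference was -1.74 ± 0.25 (SE, limma, adjusted p = 0.000565). Birc5, its partner at the centromere, was 160.3, 149.9, 168 and 153 in CabZ Het and 259, 263, 275 and 327 in CabZ KO libraries. Here every KO library was above every Het library, a difference of 0.82 ± 0.16 (SE, limma, adjusted p = 0.00207). Incenp, the scaffold itself, was under the filter at 0.992 ± 0.202 and 0.419 ± 0.0723 FPKM and is counted below with the other members under it.

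Prc1 was 11.8, 25.7, 22.1 and 14.3 FPKM in CabZ Het and 4.45, 3.43, 5.27 and 2.06 in CabZ KO 2-cell libraries. All KO libraries were below the Het range, a difference of -2.01 ± 0.30 (SE, limma, adjusted p = 0.000702). It shares 11.1% of its exon bases with Rccd1. In GV oocytes of the same line Prc1 had been 32.7 ± 9.95 and 40.5 ± 5.44. Further midzone genes fell with it, namely the kinesin Kif20a (-1.39 ± 0.20, SE, limma, adjusted p = 0.000601), which shares 29.3% of its exon bases with Cdc23, Racgap1 (-1.33 ± 0.23, SE, limma, adjusted p = 0.00117) and the contractile ring protein Anln (-0.66 ± 0.17, SE, limma, adjusted p = 0.00856). Of 6 spindle motors and microtubule-associated proteins tested, Tpx2, which activates Aurora A, fell from 5.63 ± 1.13 to 1.89 ± 0.404 (-1.19 ± 0.19, SE, limma, adjusted p = 0.00091) and Kif2c fell by 0.91 (limma, adjusted p = 0.00564). Kif4, a chromosome-arm kinesin, rose by 0.53 (limma, adjusted p = 0.0239) and shares 15.1% of its exon bases with Pdzd11.

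Ube2c was 44.7, 62.1, 51.2 and 44.1 FPKM in CabZ Het and 15.8, 16.2, 16.9 and 11.1 in CabZ KO 2-cell libraries. Its KO values were all below its Het values, the reverse of the order in the ZH oocytes, and the difference was -1.69 ± 0.20 (SE, limma, adjusted p = 0.00027). The other 4 genes tested of the anaphase promoting complex and separase group did not pass. Among 4 checkpoint genes tested Bub3, which brings the Bub kinases to kinetochores, fell from 13.6 ± 2.43 to 5.0 ± 0.967 (-1.28 ± 0.20, SE, limma, adjusted p = 0.000811), and Mad2l1 had a difference of 0.47 ± 0.20 (SE, limma, adjusted p = 0.0759). Plk4 was 8.46, 8.72, 6.75 and 8.58 in CabZ Het and 14.3, 13.6, 11 and 11 in CabZ KO libraries. Its KO libraries were higher without overlap, by 0.56 ± 0.17 (SE, limma, adjusted p = 0.0199), and limma's adjusted p was 0.0552, 0.0517 and 0.0573 without Het replicate 3, KO replicate 1 and KO replicate 2.

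Smc1a was 0.473, 0.536, 0.607 and 0.669 FPKM in CabZ Het and 2.1, 1.23, 2.02 and 1.27 in CabZ KO 2-cell libraries. The KO libraries were higher as they were in GV oocytes, with a difference of 0.74 ± 0.18 (SE, limma, adjusted p = 0.00646). Every Het library was under the filter level, which Smc1a met only through its KO libraries. Other cohesin genes had the opposite sign, with Rad21 and Sgo1 described below and Smc3 at -0.47 ± 0.17 (SE, limma, adjusted p = 0.0388). Top2a, which untangles sister chromatids, fell (-1.07 ± 0.17, SE, limma, adjusted p = 0.000847). Of 13 members under the filter 5 were lower in every KO library and 0 higher in every one, against 7.16% lower and 2584 genes higher among the 14358 under it with a mean no lower than the lowest of these members. The 5 were Incenp and, in the order CabZ Het and CabZ KO, Cenpc1, Smc2, Ncaph and Ncapd2 (exact permutation test, two-sided p = 0.029 each, unadjusted), at 0.586 and 0.20, 1.36 and 0.584, 0.425 and 0.221, and 0.625 and 0.181 FPKM.

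**Figure D2:**
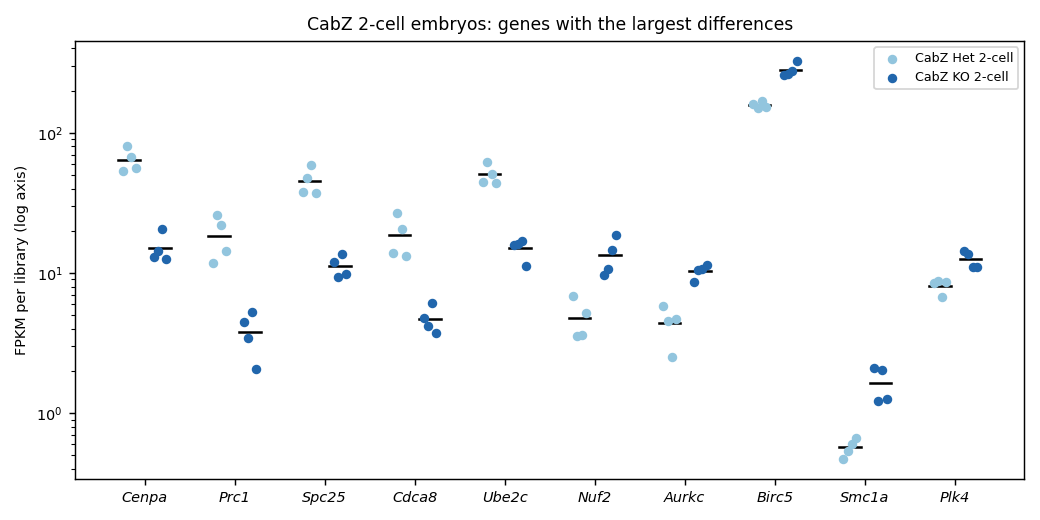
FPKM on a log axis of the 5 members with the largest falls and the 5 with the largest rises among those that passed in CabZ 2-cell embryos. Each point is 1 library, light for CabZ Het and dark for CabZ KO, and bars are group means. In each of the 10 genes the CabZ Het and CabZ KO points do not overlap.

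The 22 falls and 6 rises were also read against the promoter motifs. Of the 22, 18 had a RefSeq window, and 13 of these held CCAAT, 14 held TTTGAA and 10 both. All 6 that rose had a window, of which 3 held CCAAT, 1 held TTTGAA and 1 both. Of the members that did not pass, 16 had a window, with CCAAT in 12, TTTGAA in 7 and both in 7. In ZH oocytes 14 of the members that fell had a window, with 9, 8 and 7, and 7 that rose had one, with 4, 2 and 2. Of those that did not pass there, 18 had a window, with 15, 11 and 9, so the shares with CCAAT and TTTGAA were higher among them than among the falls.

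Outside the members, 26 of 63 pathway genes tested fell in CabZ KO 2-cell embryos and 10 rose. Among 25 other kinetochore genes 14 fell, among them Cenps (49.2 to 12.4, -1.90 ± 0.21, SE, limma, adjusted p = 0.000223) and Oip5, which helps to place CENP-A (11.2 to 2.86, -1.73 ± 0.35, SE, limma, adjusted p = 0.00259), and 4 rose. Of 17 other spindle genes 8 fell and 3 rose, with Haus3 of augmin at -1.95 ± 0.25 (SE, limma, adjusted p = 0.000331) and the spindle protein Hmmr at -1.58 ± 0.26 (SE, limma, adjusted p = 0.000992). Cdca5 (sororin), which stabilises cohesion, fell by 1.24 and Ncapg2 rose by 1.15 (limma, adjusted p = 0.000791 and 0.000672), and the 9 other cohesin and condensin genes held 2 falls and 2 rises. Of 12 other genes of the anaphase promoting complex 2 fell, Fbxo5 by 0.87 among them, and Cdc16 rose by 0.68 (limma, adjusted p = 0.00943 and 0.0158). Cdc16 averaged 0.746 FPKM in CabZ Het and met the filter of 1 FPKM through the KO libraries.

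Moving with the CabZ genotype at the 2-cell stage were the 10 oocyte transcripts, which summed to 83.7 to 132 FPKM in CabZ Het and 277 to 732 in CabZ KO libraries, and the 13 transcripts of the 2-cell stage, with 639 to 1122 and 758 to 1966. Their part in the members' changes was not tested.

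The change from GV oocyte to 2-cell embryo was described within each CabZ genotype, without a test because the 2 stages stand in separately normalised tables. A member was called higher or lower when the stages did not overlap and differed by over 2-fold on the log2(FPKM + 1) scale. Of 50 members 5 were higher and 13 lower at the 2-cell stage in CabZ Het, against 23.9% and 23.7% of 8139 genes. In CabZ KO 1 was higher and 21 lower, against 19.9% and 21.9%. The 5 that were higher in CabZ Het, Cenpa, Rad21, Kif11, Sgo1 and Top2a, were neither higher nor lower in CabZ KO, as were 46.1% of all genes that were higher in CabZ Het. Because the CabZ Het embryos chose these 5, their order against CabZ KO embryos is a description. With libraries shifted to the same median, Rad21 was also higher in CabZ KO.

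Cenpa went from a mean of 15.6 to 64.3 FPKM in CabZ Het and from 9.77 to 15.2 in CabZ KO, stage differences of 1.96 and 0.56. Rad21, the kleisin of mitotic cohesin that separase cuts, was 0.995, 0.962, 1.2 and 1.13 in CabZ Het GV oocytes, 5.19, 5.07, 6.76 and 5.66 in CabZ Het 2-cell embryos and 3.07, 2.33, 3.05 and 1.83 in CabZ KO 2-cell embryos. The KO embryos lay between the oocytes and the Het embryos, with stage differences of 1.68 in CabZ Het and 0.77 in CabZ KO. The genotypes differed at the 2-cell stage by -0.91 ± 0.19 (SE, limma, adjusted p = 0.00284), which did not pass on the library scale of the deposited values (-0.42; limma, adjusted p = 0.0879).

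Kif11, the kinesin that pushes spindle poles apart, was 0.715, 0.597, 0.70 and 0.602 FPKM in CabZ Het GV oocytes, 3.95, 3.51, 4.61 and 3.06 in CabZ Het 2-cell embryos and 1.07, 1.22, 1.93 and 0.677 in CabZ KO 2-cell embryos. The KO embryos were above the oocytes with 1 library at their level, and the stage differences were 1.52 and 0.40. Between genotypes it differed by -1.13 ± 0.21 (SE, limma, adjusted p = 0.00186). Top2a followed the same order, with 1.07, 0.799, 1.41 and 1.22 in CabZ Het GV oocytes, 3.87, 3.26, 2.96 and 3.03 in CabZ Het 2-cell embryos and 1.37, 1.02, 1.05 and 0.737 in CabZ KO 2-cell embryos. Its KO embryos overlapped the oocytes, with 1 library below them.

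Among the 13 that were lower at the 2-cell stage in CabZ Het, 11 were lower in CabZ KO too, as were 60.4% of all genes that were lower in CabZ Het. Tacc3 went from 57.9, 39.8, 75.2 and 61.3 FPKM in CabZ Het GV oocytes to 4.4, 9.23, 7.96 and 5.27 in CabZ Het 2-cell embryos, a stage difference of -2.96 against -3.65 in CabZ KO. Bub1b went from 9.95, 7.66, 12.6 and 9.77 to 0.594, 0.365, 0.364 and 0.498 in CabZ Het, and its stage differences were -2.90 and -2.74. Plk1 went from 15.3, 14.4, 15.1 and 14 to 1.24, 2.91, 2.16 and 3.0 in CabZ Het, with -2.27 and -2.54. In each of these 3 genes every embryo library was far below every oocyte library. Spc24, another Ndc80 complex subunit, was 21.7, 16.1, 19.2 and 21 in CabZ Het GV oocytes and 1.63, 6.6, 5.33 and 3.52 in CabZ Het 2-cell embryos, with stage differences of -2.06 and -2.03. The 2 that were lower in CabZ Het only were Nuf2 (-1.59 against -0.58) and Ttk (-1.40 against -0.98).

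A further 10 members were lower at the 2-cell stage in CabZ KO without being called in CabZ Het. Prc1 had a stage difference of -3.15 in CabZ KO and -0.80 in CabZ Het, Cdca8 had -1.95 and -0.01, and Spc25 had -1.07 and 0.74. Tpx2 (-1.75 and -0.28), Bub3 (-1.94 and -0.84) and Zwint (-1.28 and 0.25) showed the same order. With libraries shifted to the same median, Spc25, Zwint, Ndc80 and Cenph were no longer called lower in CabZ KO. Their stage differences there were then -0.73, -0.93, -0.83 and -0.97. The 1 member higher in CabZ KO was Plk4, at 1.07.

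**Figure D3:**
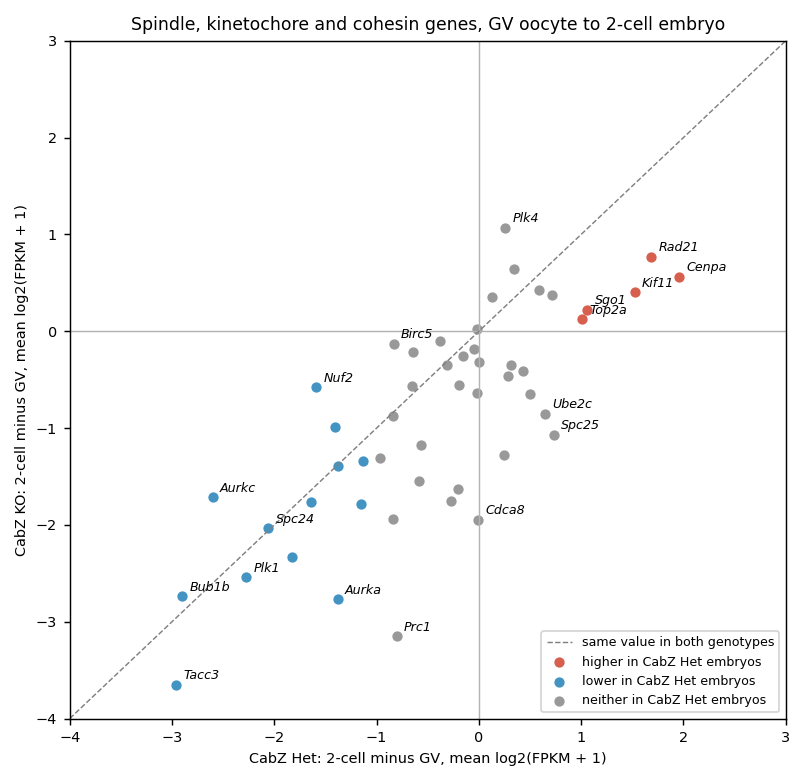
Mean log2(FPKM + 1) of 2-cell embryos minus GV oocytes in CabZ Het (x axis) and CabZ KO (y axis) for 50 members, coloured by whether the gene was higher, lower or neither at the 2-cell stage in CabZ Het. The dashed line marks equal differences. The 5 genes higher in CabZ Het lie below it, and Prc1, Cdca8 and Spc25 lie far below it.

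Whether the CabZ KO effect differed between the stages was tested as the 2-cell effect minus the GV effect for the 43 members tested at both. It passed for 21, 17 of them more negative and 4 more positive at the 2-cell stage, against 55.8% of 4994 genes. The most negative were Prc1 (-2.35 ± 0.38, SE, limma, adjusted p = 0.000119), Cdca8 (-1.94 ± 0.28, SE, limma, adjusted p = 4.77e-05) and Spc25 (-1.80 ± 0.24, SE, limma, adjusted p = 2.69e-05). Nuf2 (1.01 ± 0.30, SE, limma, adjusted p = 0.00975), Aurkc (0.89 ± 0.23, SE, limma, adjusted p = 0.00431), Plk4 (0.81 ± 0.22, SE, limma, adjusted p = 0.00551) and Birc5 (0.71 ± 0.18, SE, limma, adjusted p = 0.00359) were the positive ones. Cenpa, already lower in CabZ KO oocytes, had a further difference of -1.40 ± 0.23 (SE, limma, adjusted p = 0.000158). The split was 9 positive and 15 negative with libraries shifted to the same median, and 9 positive and 11 negative on the library scale of the deposited values. Of all genes 1329 passed as positive and 1456 as negative, 1710 and 1099 with equal medians, and 2005 and 758 on the deposited values' scale. Bub3, Kif2c, Ndc80, Rad21, Sgo1 and Smc3 lost the call on at least 1 of these scales.

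The 3 Aurora kinases share a catalytic domain but sit in different places. Aurora A works at spindle poles, Aurora B is the enzyme of the chromosomal passenger complex, and Aurora C takes that place in germ cells. Per exon length, Aurka and Aurkc were 208 ± 19.2 and 158 ± 6.05 FPKM in CabZ Het GV oocytes (SD, n = 4) and Aurkb 9.89 ± 1.43, whereas in CabZ Het 2-cell embryos they were 79.2 ± 28.9, 22.5 ± 6.99 and 13.4 ± 4.33. The exon reads of close paralogues can be shared between them, and how the authors' counting treated such reads is not given in the sources used here.

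Aurka was 33, 34.2, 20.8 and 22 FPKM per gene span in ZH Het and 10.8, 22.8, 19.4 and 16.1 in ZH KO oocytes. The ranges overlapped, and the difference of -0.65 ± 0.24 (SE, limma, adjusted p = 0.0469) missed the threshold without ZH Het replicate 1 or 2, without ZH KO replicate 1, 3 or 4, on the scale of the reads in the table (limma, adjusted p = 0.105), with the pseudocount of 0.1 (0.0590), with no filter (0.120) and with the replicate block (0.0598). It was 29.7, 26.8, 30.8 and 25.2 in CabZ Het and 26.4, 25.2, 16.7 and 23.7 in CabZ KO oocytes. At the 2-cell stage it was 5.64, 12.1, 14.9 and 10.1 in CabZ Het and 3.04, 2.37, 2.52 and 2.04 in CabZ KO embryos. The KO embryos were all lower, by -1.68 ± 0.27 (SE, limma, adjusted p = 0.000877).

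Aurkc was lower in embryos than in oocytes in the description by stage, and CabZ KO embryos had more of it than CabZ Het embryos. It was 5.8, 4.56, 2.52 and 4.69 FPKM in CabZ Het and 8.65, 10.4, 10.7 and 11.4 in CabZ KO 2-cell embryos, against 29.9, 29.8, 31.9 and 32 and 35, 37.7, 35.6 and 35.4 in the oocytes. At the 2-cell stage the groups did not overlap and differed by 1.10 ± 0.22 (SE, limma, adjusted p = 0.00284). Aurkb was the lowest of the 3 in oocytes, and in 2-cell embryos it was 4.6, 6.06, 4.06 and 2.66 in CabZ Het and 3.21, 2.15, 1.39 and 1.14 in CabZ KO. These ranges overlapped, with a difference of -0.86 ± 0.27 (SE, limma, adjusted p = 0.0241) that did not pass with libraries shifted to the same median (limma, adjusted p = 0.0679) or on the library scale of the deposited values (0.238), with no filter (0.0594), nor without Het replicate 1 or 2 or KO replicate 3 or 4.

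Cohesin has mitotic and meiotic forms of several subunits. Per exon length in CabZ Het GV oocytes, Smc1a was 14.8 ± 4.48 FPKM and its meiotic form Smc1b 2.97 ± 0.393, and Stag2 was 3.21 ± 0.876 against 0.356 ± 0.0299 for the meiotic Stag3. In CabZ Het 2-cell embryos the same pairs were 5.63 ± 0.839 and 4.21 ± 1.93, and 12.7 ± 4.53 and 1.33 ± 0.427. Per gene span Smc1b lay at 0.0973, 0.0984, 0.126 and 0.146 in ZH Het and 0.192, 0.118, 0.213 and 0.161 in ZH KO oocytes, and at 0.419, 0.196, 0.155 and 0.244 and 0.183, 0.247, 0.263 and 0.278 in CabZ Het and CabZ KO embryos. At these levels, all under the filter, the groups overlapped.

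Of the shugoshins, Sgo1 was 5.55, 5.05, 5.9 and 5.21 FPKM in CabZ Het oocytes, 7.77, 16.2, 14.4 and 12.8 in CabZ Het embryos and 5.63, 4.87, 8.53 and 6.25 in CabZ KO embryos. The embryo ranges overlapped through 1 KO library, with a difference of -0.89 ± 0.25 (SE, limma, adjusted p = 0.0137) that did not pass on the library scale of the deposited values (limma, adjusted p = 0.328). Sgo2a was 4.31, 4.01, 2.85 and 4.43 in CabZ Het and 3.81, 3.62, 3.39 and 0.994 in CabZ KO embryos, with KO replicate 4 far below the rest. Its difference of -0.38 ± 0.30 (SE, limma, adjusted p = 0.30) did not pass, and its sign turned to 0.09 on the library scale of the deposited values.

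**Figure D4:**
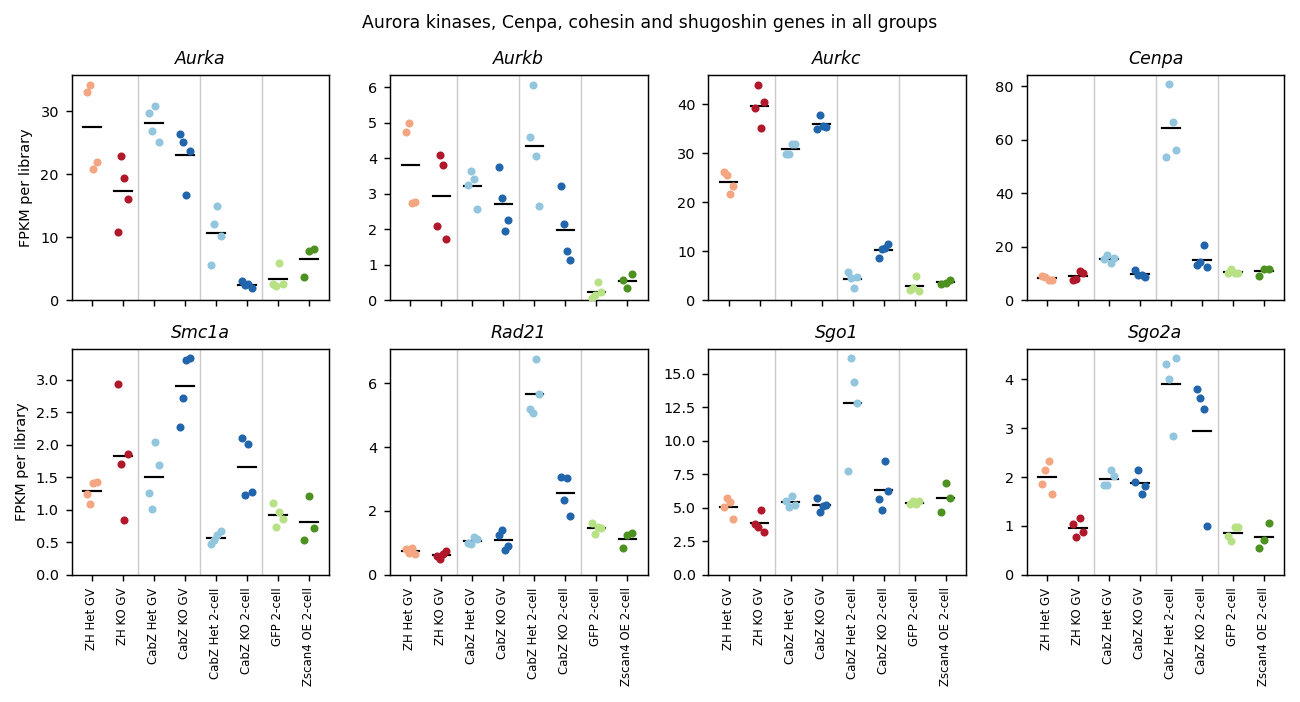
FPKM per gene span, on linear axes from 0, of Aurka, Aurkb, Aurkc, Cenpa, Smc1a, Rad21, Sgo1 and Sgo2a in the 8 RNA-seq groups. Each point is 1 library and bars are group means. Cenpa, Rad21 and Sgo1 are highest in CabZ Het 2-cell embryos, and Aurkc is highest in ZH KO oocytes.

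In embryos from injected oocytes, 0 of the 32 members tested passed between the libraries labelled Zscan4 overexpression and GFP (limma), against 1.79% of 4293 genes. At an unadjusted p under 0.05 there were 8 members, 4 higher and 4 lower, against 19.8% of all genes. Differences ran from -0.45 for Zwint, at 3.2, 3.46, 3.72 and 3.38 FPKM in GFP and 1.99, 2.49 and 2.26 in Zscan4 OE libraries (limma, adjusted p = 0.128), to 0.91 for Tacc3, at 3.44, 1.25, 2.84 and 1.04 and 2.3, 10.9 and 3.42 (limma, adjusted p = 0.297). Of the 50 other pathway genes tested 0 passed in limma, and 6 had an unadjusted p under 0.05. Cenpa was 10.3, 11.7, 10.2 and 10.1 in GFP and 9.26, 11.7 and 11.7 in Zscan4 OE libraries, and Aurka 2.55, 2.35, 5.88 and 2.59 and 3.66, 7.9 and 8.09. Both pairs of ranges overlapped. Of 27 members under the filter, Kif2c and Top2a were higher and Kif11 lower in every Zscan4 OE library than in every GFP library. Among 11364 genes under the filter with a mean no lower than the lowest of these members, 6.61% were higher without overlap and 4.39% lower. With 3 libraries against 4, an exact permutation test cannot give a p under 0.0571.

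**Figure D5:**
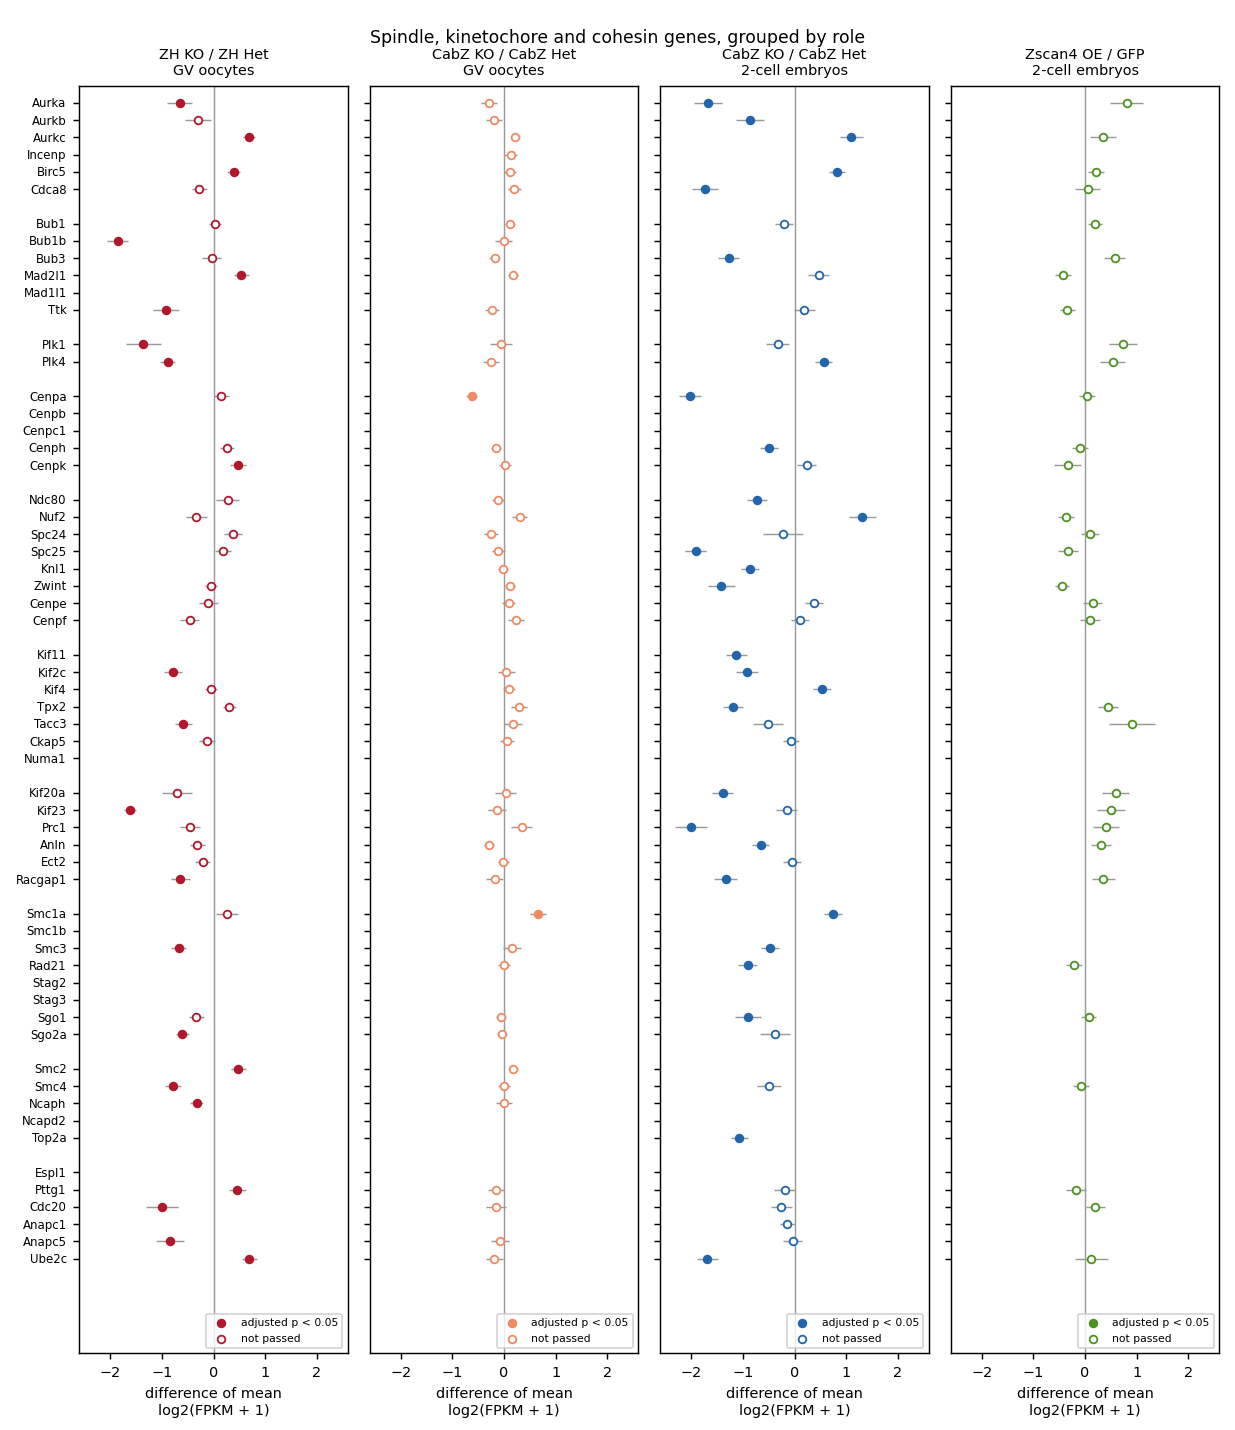
Difference in log2(FPKM + 1), treated minus control, with its standard error for each tested member in the 4 comparisons, arranged by role. Filled points passed (limma, adjusted p under 0.05) and open points did not. ZH KO and CabZ KO 2-cell panels hold most of the filled points, the CabZ KO GV panel holds 2 and the Zscan4 OE panel none.

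Open chromatin at the members' start sites was read from the ATAC-seq peak lists of CabZ GV oocytes. A peak within 500 bases of the start was found for 13, 17 and 38 of the 59 members in the CabZ Het libraries A, B and C and for 16, 8 and 8 in the CabZ KO libraries A, B and C. As shares of all genes the same libraries had 8.93%, 17.7% and 31.4%, and 12.9%, 4.11% and 5.34%. The lists differed widely in size, from 43399 to 111327 peaks in CabZ Het and from 19160 to 46070 in CabZ KO, and peaks were called separately in each library. In each library the members' share was above that of all genes, and the CabZ Het and CabZ KO ranges of members with a peak overlapped. Requiring a -log10 q of at least 5, it was 0%, 8.47% and 25.4% in CabZ Het A, B and C against 0.529%, 2.72% and 11.99% of all genes, and 5.08%, 0% and 0% in CabZ KO A, B and C against 2.08%, 0.342% and 0.328%, so that in 3 libraries it was below that of all genes. A count of 0 of 59 members allows a share of up to 5.08%.

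Of the 59 members 1, Stag3, had a peak in all 6 libraries, against 0.482% of all genes, and 15, among them Aurkc, Aurkb, Plk4, Spc24, Kif11, Rad21 and both shugoshins, had none in any, against 60.0%. Zwint, Tacc3 and Smc2 had a peak in all 3 CabZ Het libraries and no CabZ KO library, and Aurka, Cenpc1 and Anapc5 in 3 CabZ Het and 1 CabZ KO library, each pattern being that of 1.52% of all genes. Kif23 went the other way, with 1 CabZ Het and 3 CabZ KO libraries, as did 0.126% of all genes. Of the members that passed in CabZ GV oocytes, Cenpa had a peak in 1 CabZ Het library and Smc1a in 2 libraries of each genotype. With 3 against 3 libraries no test of a single start site could give a p under 0.1, and none was made.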

How the data were processed

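The 60 members and the other gene lists were chosen with earlier results of these data known. RNA-seq was measured in 31 libraries and ATAC-seq in 6, with groups taken from the sample records. Per the methods and the submitters' processing notes, reads were aligned to mm10 with STAR 2.5.3a and quantified in Partek, and ATAC-seq reads were aligned with Bowtie2 2.3.

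The authors deposited FPKM values over the whole gene span, plus a small offset, for the ZH and Zscan4 OE libraries. For the CabZ libraries the authors deposited score values, which the values themselves show to be reads divided by the span 2 times and scaled to equal sums. The design had assumed FPKM in every table, so FPKM were restored for CabZ by multiplying by the span and setting every library to a common total of recovered reads. Reads were recovered from the value steps, and 85.2 to 89.7% of low values lay within 0.1 of a whole read. ATAC-seq peak lists were deposited by the authors with -log10 q values and a fold enrichment ratio over background, called by MACS2 in each library. The authors' peak score values were not used.

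Genes that averaged 1 FPKM or more were tested on log2(FPKM + 1) with limma 3.58.1 in R 4.3.3, within each table, with Benjamini-Hochberg adjustment over all genes, and differences of effects were tested as contrasts between tables. Other work used Python 3.11.15. Named genes were the 5 largest passing rises and falls per comparison, the 5 largest changes by stage in each direction, and the Aurora, cohesin and shugoshin paralogues with Cenpa. Other members named under a role were chosen after their values were seen. Alternatives were another pseudocount (0.1), no filter, a filter of 5 FPKM, 2 other library scales, limma's trend, the replicate block and each library left out. The table scale refers to ZH and Zscan4 OE libraries scaled to the reads of the table, and the deposited scale to CabZ libraries left at equal sums. On simulated data the test recovered 91.4, 87.9, 48.6 and 80.6% of 2-fold changes in the ZH, CabZ GV, CabZ 2-cell and Zscan4 OE comparisons, and 98.4, 98.6, 84.8 and 98.2% of 4-fold changes. These changes were set on the log2(FPKM + 1) scale in genes that averaged at least 5 FPKM. Both groups were given the spread of the control libraries. Recovery was therefore not measured for members with lower values or for wider spreads in the treated group. RefSeq promoter windows came from a table on GRCm38.p6. Sample columns left unmatched numbered 0.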

Additional observations from a re-analysis of the deposited data

Results flagged for a closer look

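Among 168 sets of 4 libraries examined, 12 had a library whose gap to its nearest neighbour was large for the range of the set, and chance marks about 1 set in 20. GFP replicate C stood above its group in 4 of them. It had Aurka at 5.88 FPKM against 2.35 to 2.59 in the other 3, Aurkc at 5.02 FPKM against 1.95 to 2.48 in the other 3, Plk1 at 2.08 FPKM against 0.770 to 0.845 in the other 3 and Spc24 at 3.10 FPKM against 1.76 to 1.91 in the other 3. GFP replicate B had Cenpa at 11.7 FPKM against 10.1 to 10.3 in the other 3. ZH KO replicate 2 had Bub1b at 5.11 FPKM against 2.37 to 2.51 in the other 3 and Cdc20 at 19.3 FPKM against 5.99 to 7.33 in the other 3, in both genes on the side of the ZH Het libraries. In CabZ GV oocytes, Het replicate 2 had Plk4 at 8.11 FPKM against 6.01 to 6.34 in the other 3, Het replicate 3 had Birc5 at 248 FPKM against 291 to 299 in the other 3, and KO replicate 3 had Cdca8 at 20.1 FPKM against 20.9 to 21.0 in the other 3. In CabZ 2-cell embryos, Het replicate 3 had Plk4 at 6.75 FPKM against 8.46 to 8.72 in the other 3 and KO replicate 4 had Sgo2a at 0.994 FPKM against 3.39 to 3.81 in the other 3.

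The effect of CabZ KO differed between the 2-cell stage and GV oocytes for 21 members in a test of the difference itself. Given as the difference of the effects, 2-cell minus GV in log2(FPKM + 1), and limma's adjusted p, the more negative ones were Prc1 (-2.35, 0.000119), Cdca8 (-1.94, 4.77e-05), Spc25 (-1.80, 2.69e-05), Zwint (-1.53, 0.000225), Ube2c (-1.50, 0.000175), Tpx2 (-1.47, 0.000134), Kif20a (-1.42, 0.000830), Cenpa (-1.40, 0.000158), Aurka (-1.39, 0.00139), Racgap1 (-1.15, 0.00269), Bub3 (-1.10, 0.000604), Kif2c (-0.96, 0.00596), Rad21 (-0.91, 0.00173), Knl1 (-0.84, 0.00105), Sgo1 (-0.84, 0.0141), Smc3 (-0.63, 0.0395) and Ndc80 (-0.61, 0.0251). The more positive ones were Birc5 (0.71, 0.00359), Plk4 (0.81, 0.00551), Aurkc (0.89, 0.00431) and Nuf2 (1.01, 0.00975).

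The effect of the deletion in GV oocytes differed between the ZH and CabZ lines for 14 members in the same kind of test. Here the lines stood on unlike library scales. Given as ZH minus CabZ and limma's adjusted p, the more negative ones were Bub1b (-1.85, 0.000312), Kif23 (-1.48, 0.000233), Plk1 (-1.30, 0.0381), Smc3 (-0.83, 0.0186), Kif2c (-0.82, 0.0206), Smc4 (-0.79, 0.00723), Tacc3 (-0.76, 0.0302), Plk4 (-0.64, 0.0321) and Sgo2a (-0.56, 0.00974), and the more positive ones were Cenph (0.41, 0.0482), Aurkc (0.48, 0.0151), Spc24 (0.63, 0.0433), Cenpa (0.77, 0.00461) and Ube2c (0.88, 0.00886).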

How the results depend on the processing

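Pseudocount, filter, library scale, limma's trend, the replicate block and single libraries were varied 1 at a time, except that the other library scale moved both tables of a contrast between lines. Of the counts, 283 values stayed within 1.5 times and 43 moved. Of the named genes' values, 581 kept their direction and side of the threshold, 38 lost the call, 5 gained it and 10 turned sign. The cause of a change was not tested unless fewer genes or samples entered. With the pseudocount of 0.1, 7 members passed with a log2 difference over 1 in ZH KO, and 47 genes passed for Zscan4 OE. By stage, 2 members were then higher in CabZ KO, as they were with equal library medians. Without a filter, 7005 genes passed in ZH, 1399 in CabZ GV and 6 in Zscan4 OE, and 2 members fell in CabZ GV. With a mean of at least 5 FPKM, which leaves fewer genes, the numbers passing were 1346 in ZH, 466 in CabZ GV and 2148 in CabZ 2-cell comparisons, and 8 members fell in ZH, 0 rose in CabZ GV (limma), 9 fell in CabZ KO embryos and 13 differed between stages. With equal library medians 3 members rose in ZH and 6 passed with a log2 difference over 1. On the library scale of the deposited values 11 members rose and 14 fell in CabZ KO embryos, against 3088 and 1253 of all genes. Requiring a -log10 q of at least 5, members with a start-site peak averaged 11.3% in CabZ Het and 1.69% in CabZ KO libraries.

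Leaving out 1 library in turn, 2435 to 3177 genes passed in ZH. Members that rose there numbered 3 to 9 (3 without Het 1 or 2 and 4 without KO 1 or 4) and those that fell 10 to 15. Those that passed with a log2 difference over 1 numbered 3 to 5 (5 without Het 4, KO 2 or KO 3). In CabZ GV oocytes 588 to 843 genes passed (588 without Het 1), 0 to 1 members rose (0 without Het 1 or KO 4) and 1 fell. In CabZ 2-cell embryos 3803 to 4486 genes passed, 4 to 6 members rose and 19 to 22 fell. For Zscan4 OE 18 to 112 genes passed (18, 20, 32 and 48 without GFP A, B, C and D, and 49 and 28 without OE A and B). Members that differed between stages numbered 19 to 25, and between lines 9 to 23 (9 without ZH Het 2, CabZ Het 1 or CabZ KO 2, and 23 without ZH KO 2). Members higher by stage in CabZ KO numbered 0 to 1 (0 without KO GV 4).

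Values that turned sign had not passed in any of those comparisons. They were Cenpa in ZH with equal library medians (-0.000925), Sgo2a in CabZ 2-cell embryos on the deposited scale (0.0877), Rad21 in CabZ GV oocytes with the pseudocount of 0.1 (-0.011) and between -0.0735 and 0.0709 with 1 library left out (without Het 1 or 2 or KO 1 or 2), and for Zscan4 OE Cenpa between -0.0149 and 0.140 and Sgo1 between -0.0448 and 0.183 (without OE B, and for Cenpa also C). In ZH, Smc2 and Cenpk lost the call without Het 1 or 2, and Smc2 also without KO 4 and Cenpk without KO 1, with limma's adjusted p between 0.0509 and 0.0729. Calls were gained as rises by Aurkc in CabZ GV oocytes with no filter (limma, adjusted p = 0.0164) and Smc1a in ZH without KO 3 (0.0358). Sgo1 gained a call as a fall in ZH with equal library medians (limma, adjusted p = 0.0297), without Het 4 (0.0493) and without KO 3 (0.0219).

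Whether same-numbered libraries deviated together was also looked at. Their correlations ran from -0.41 to 0.40 in ZH, -0.18 to 0.14 in CabZ GV, -0.05 to 0.13 in CabZ 2-cell and -0.16 to 0.15 in Zscan4 libraries. Among 4, 4, 4 and 3 pairs, 1, 0, 1 and 2 controls correlated best with their own number. So few pairs cannot show whether same-numbered libraries shared a collection or batch, and the main test used no pairing. With the replicate block 7 members rose and 13 fell in ZH, 1 and 1 in CabZ GV, 5 and 20 in CabZ 2-cell embryos, 22 differed between stages and 13 between lines, and 2 genes passed for Zscan4 OE. Depth limits the genes under 1 FPKM, among them Smc1b, Stag3 and Ncapd2.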

Other observations

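Calls at the 2-cell stage in CabZ and in oocytes of the ZH line, which share no library, can be set side by side. Of 41 members tested in both, Aurka, Kif2c, Racgap1 and Smc3 fell in both and Aurkc and Birc5 rose in both. Racgap1 and Aurkc kept both calls on every library scale, whereas Aurka and Birc5 lost the ZH call and Kif2c and Smc3 the 2-cell call on at least 1. Plk4 fell in ZH KO and rose in CabZ KO embryos, and Ube2c did the reverse. Among 4525 genes tested in both, 271 fell in both, 383 rose in both, 321 fell in ZH KO and rose in CabZ KO embryos, and 422 did the reverse. Of the 50 members tested in at least 1 of the 4 comparisons, 10 (20%) passed in 2, 32 (64.0%) in 1 and 8 (16%) in 0, against 16.5%, 45.2% and 35.1% of 9503 genes, of which 303 passed in 3 and 2 in 4.

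A further 9 members were tested in no comparison and had a mean under 1 FPKM in all 8 groups, namely Cenpb, Cenpc1, Mad1l1, Numa1, Ncapd2, Smc1b, Stag2, Stag3 and separase (Espl1). The corona kinesin Cenpe was tested in every comparison and had means of 4.61 and 4.38 FPKM in ZH Het and ZH KO oocytes, 5.99 and 6.37 in CabZ Het and CabZ KO oocytes, and 4.33 and 5.93 in CabZ Het and CabZ KO embryos. The checkpoint kinase Bub1 had 3.32 and 3.4, 3.67 and 4.05, and 3.67 and 3.08 FPKM in the same order, with differences between -0.21 and 0.11.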
